A study of Homo sapiens with 5 samples.

Results

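The 10 genes described here are 9 secreted Wnt ligands (WNT2B, WNT3, WNT3A, WNT4, WNT5A, WNT5B, WNT7A, WNT7B and WNT8B) and WLS, the carrier that ligand-producing cells need for Wnt secretion. They were chosen by gene symbol, with earlier results of these data known. Each of the 8 libraries listed 10 of 10, of the 32732 gene identifiers that all 8 libraries share. The data are single-cell RNA sequencing of the wild-type human embryonic stem cell line WA09, taken along its differentiation towards GnRH neurons, the hypothalamic neurons that control reproduction. D0 was the undifferentiated line. D5_dSMADi and D10_dSMADi had received dual SMAD inhibition (dSMADi), which blocks BMP and TGF-beta signalling and turns stem cells to a neural fate. D5_XAV939 and D10_XAV939 had received the same together with the tankyrase inhibitor XAV939. D22, D24 and D26 were later days of the protocol without XAV939, after FGF8 and then the Notch inhibitor DAPT. According to the study's methods, that protocol has cells frozen and thawed before the DAPT step. All groups are 1 cell line, and each condition is 1 library of 1 culture.

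Wnt ligands are lipid-modified in the producing cell, are carried to its surface by WLS, and bind Frizzled receptors with LRP co-receptors on the receiving cell. In the canonical branch this stabilises beta-catenin, which then works with TCF/LEF factors at target genes. WNT3, WNT3A, WNT8B and WNT2B are mostly discussed as canonical ligands, WNT5A and WNT5B mostly as ligands of beta-catenin-independent signalling, and WNT4, WNT7A and WNT7B in both. In the developing forebrain the cortical hem at the dorsal midline is a well-known source of WNT2B, WNT3A, WNT5A and WNT8B. XAV939 keeps tankyrase from degrading axin, a scaffold of the complex that destroys beta-catenin. It therefore lowers canonical signalling in the receiving cell and does not act on the ligands themselves.

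Levels are unique molecular identifiers (UMIs) of a gene summed over the cells kept and divided by all UMIs of the library, and given as counts per 1e6 UMIs (CPM). Each UMI stands for 1 captured 3' end, so that CPM does not depend on gene length. The cells kept numbered 1009 at D0, between 2168 and 2815 in the 4 libraries of D5 and D10, and 9523, 9107 and 11056 at D22, D24 and D26. They held between 58073098 and 130440502 UMIs per library, and 0 UMIs of a gene still allow 0.0230 to 0.0517 CPM (3 counts). The 5 libraries of D0 to D10 were tagged and pooled in 1 droplet run, whereas D22, D24 and D26 were separate runs. A step from D10 to D22, from D22 to D24 or from D24 to D26 thus cannot be told apart from a change of run. POU5F1, a pluripotency factor, was at 1244 CPM in D0 and at 26.6 CPM or less in every other library. No condition has a replicate, so no difference was tested and no p-value is given. Intervals are exact 95% intervals that cover counting error only, and they are too narrow for a gene whose UMIs lie in few cells. The libraries of the pooled run shared 0 barcodes, and pairs of separate runs shared 1 to 32.

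WLS was the highest of the 10 genes at D0, in both D5 libraries and in D10_dSMADi. Its level was 6.94 CPM at D0, 367 in D5_dSMADi, 124 in D5_XAV939, 267 in D10_dSMADi, 21.5 in D10_XAV939, 15.8 at D22, 6.56 at D24 and 7.66 at D26. Between D0 and D5_dSMADi it was 52.9-fold higher. The gene lies at chr1:68098473-68233120 on the minus strand of GRCh38 and overlaps GNG12-AS1 on the other strand. Overlaps with a gene on the other strand also touch WNT2B, WNT4, WNT5A and WNT5B. The sources used here do not state whether counting used strand, so reads of these partners may not be told apart.

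WNT5B was the leading ligand in 5 of the 8 libraries. It had 4.89 CPM at D0, 63.7 in D5_dSMADi, 53.6 in D5_XAV939, 79.6 in D10_dSMADi, 101 in D10_XAV939, 94.1 at D22, 9.52 at D24 and 12.5 at D26. Each of the 5 libraries from D5 to D22 stood between 53.6 and 101 CPM, above D0, D24 and D26. The step from D22 to D24 was 9.88-fold lower, larger than that of any other member at 1 CPM or more in either of these libraries. It is also a step between separate runs.

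WNT2B had 1.74 CPM at D0, 8.07 in D5_dSMADi, 8.35 in D5_XAV939, 110 in D10_dSMADi, 15.0 in D10_XAV939, 9.14 at D22, 13.2 at D24 and 18.4 at D26. It was lowest at D0, 4.64-fold below D5_dSMADi, and highest in D10_dSMADi, 13.6-fold above D5_dSMADi. WNT7B, which with WNT7A is known for guiding the growth of brain vessels, had 1.36 CPM at D0, 11.7 in D5_dSMADi, 2.44 in D5_XAV939, 64.3 in D10_dSMADi, 15.5 in D10_XAV939, 6.38 at D22, 7.80 at D24 and 2.45 at D26. It too was highest in D10_dSMADi. WNT8B reached 1 CPM only there, with 113 UMIs (1.43 CPM) against 0 to 14 UMIs in each of the other 7 libraries.

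WNT4 was a late ligand. It had 15 UMIs at D0 and 1 to 6 in each library of D5 and D10, where no level passed 0.103 CPM, and then 9.38 CPM at D22, 9.91 at D24 and 28.7 at D26. WNT7A had 0, 2, 1, 28 and 0 UMIs in D0, D5_dSMADi, D5_XAV939, D10_dSMADi and D10_XAV939, and 2.06 CPM at D22, 0.984 at D24 and 2.12 at D26. WNT3 was between 1.13 and 2.50 CPM from D0 to D22 and reached 3.52 CPM at D24 and 5.802 at D26. WNT5A stayed between 0.376 and 2.74 CPM in all 8 libraries, highest at D22. WNT3A, a canonical ligand and hem marker, had 31 UMIs at D0, at most 2 in any other library and 0 in D5_XAV939, D24 and D26.

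**Figure D1:**
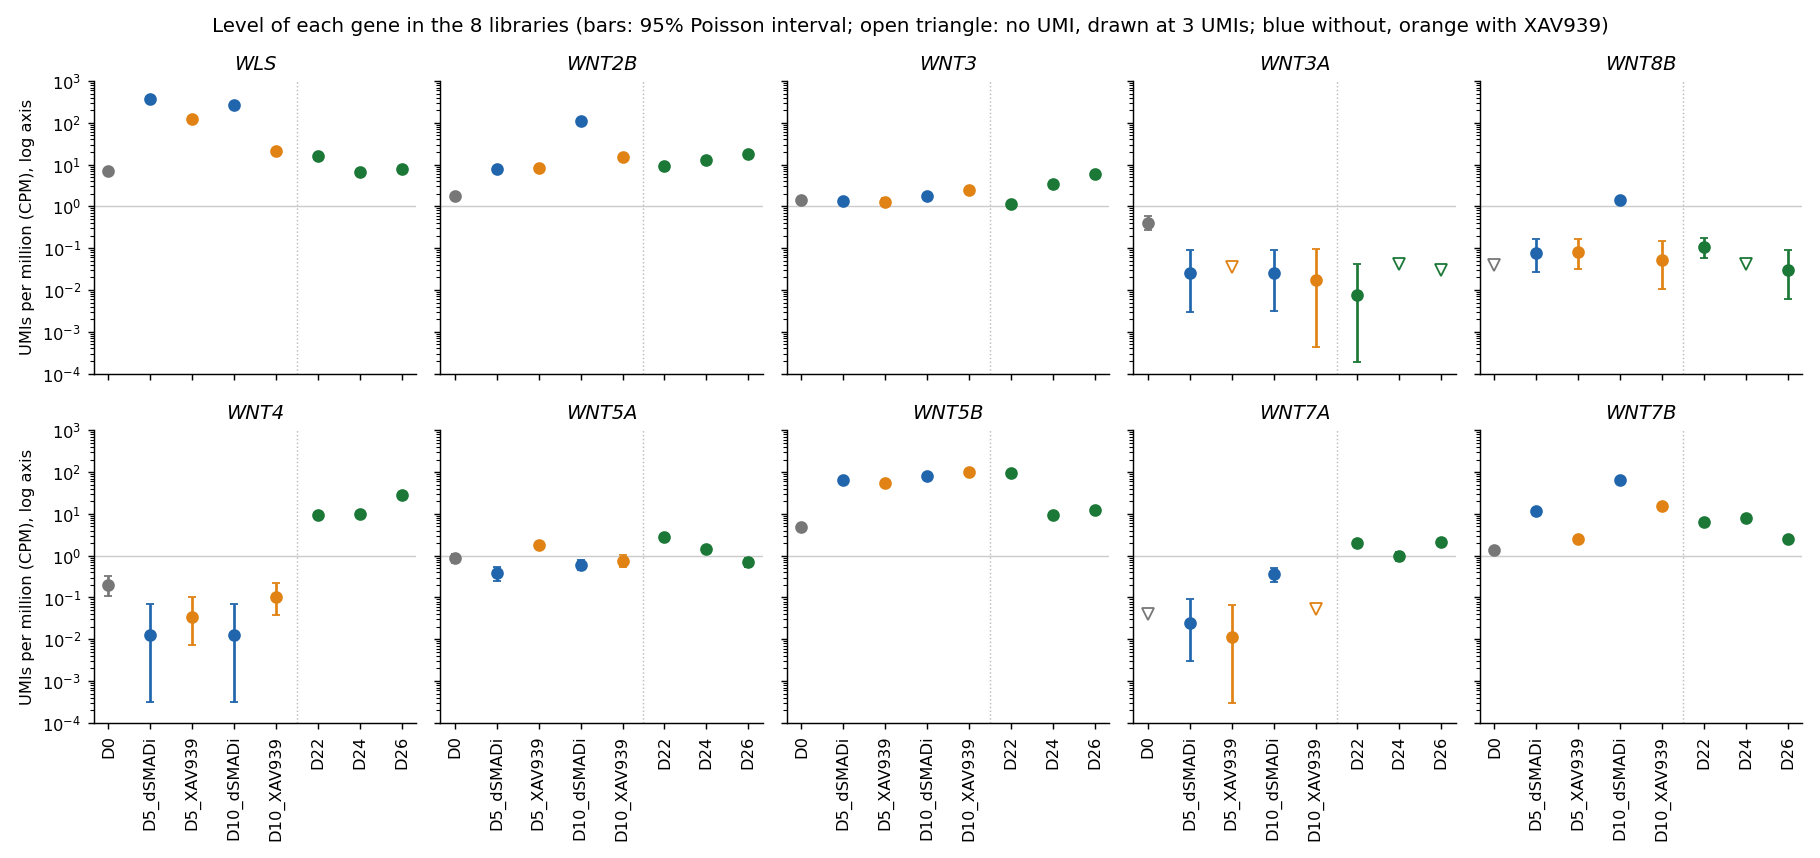
Level of each of the 10 genes in the 8 libraries, in CPM on a log axis, with 95% Poisson intervals (open triangles mark libraries with 0 UMIs, drawn at 3 UMIs; the dotted line parts the pooled run from the separate runs; the grey line is 1 CPM). WLS, WNT7B and WNT2B are lower with XAV939 (orange) than without (blue) at D10, where WLS is at 21.5 against 267 CPM, and WNT4 lies at 9.38 CPM or more only from D22 on.

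The 9 ligands together made 10.9 CPM at D0, 85.3 in D5_dSMADi, 67.6 in D5_XAV939, 258 in D10_dSMADi, 135 in D10_XAV939, 125 at D22, 46.4 at D24 and 70.7 at D26. WNT5B held 74.7% of these UMIs in D5_dSMADi (73.6 to 75.7), 79.3% in D5_XAV939, 74.8% in D10_XAV939 and 75.2% at D22. In D10_dSMADi it held 30.9%, behind WNT2B with 42.6% (41.9 to 43.3) and ahead of WNT7B with 24.9%. At D24 WNT2B led with 28.5% (27.0 to 30.1), and the intervals of WNT4 (21.4%, 19.97 to 22.8) and WNT5B (20.5%, 19.2 to 21.97) overlapped. At D26 WNT4 led with 40.6% (39.4 to 41.7). At D0 WNT5B led with 44.9%, and WNT2B (15.98%, 13.5 to 18.7), WNT3 (13.0%, 10.7 to 15.4) and WNT7B (12.5%, 10.3 to 14.9) had overlapping intervals.

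**Figure D2:**
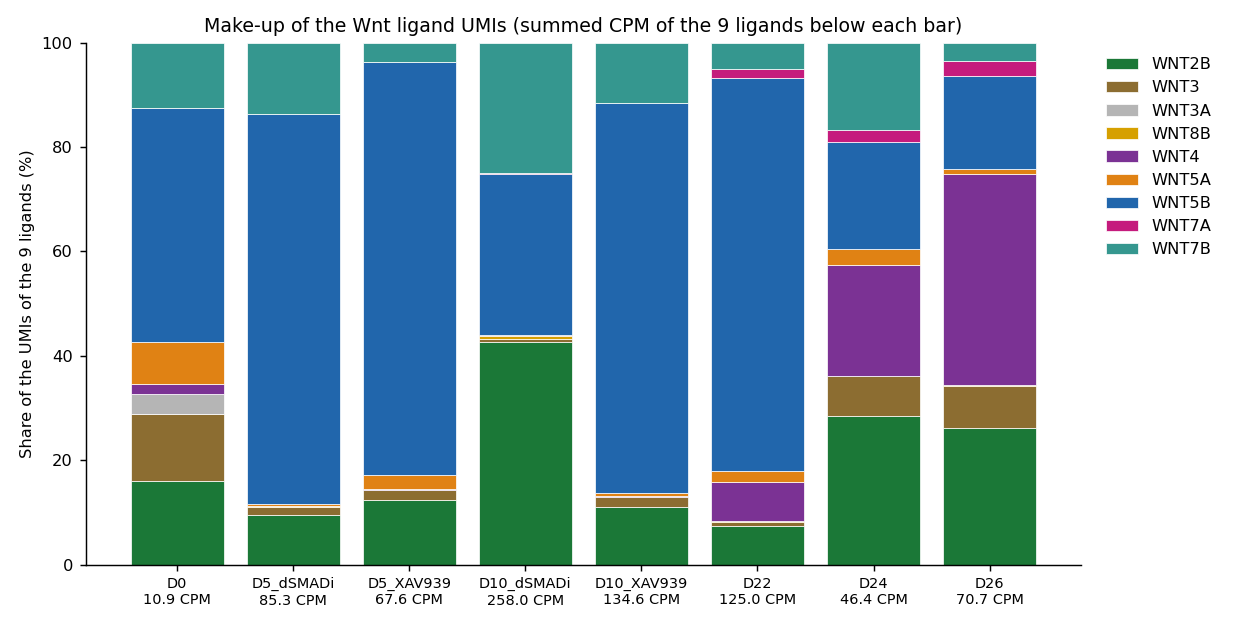
Share of each ligand in the UMIs of the 9 ligands, in percent, for the 8 libraries, with the summed level of the 9 in CPM under each bar. WNT5B holds 74.7% or more in D5_dSMADi, D5_XAV939, D10_XAV939 and D22, while D10_dSMADi is led by WNT2B with 42.6% and D26 by WNT4 with 40.6%.

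The comparison of D5_XAV939 with D5_dSMADi asks what early Wnt inhibition changes after 5 days. WLS was lower with XAV939, at 124 against 367 CPM (10746 against 29262 UMIs), a log2 ratio of -1.57 (-1.60 to -1.54). WNT7B was 4.77-fold lower (212 against 930 UMIs, log2 -2.26, -2.48 to -2.04). WNT5A was 4.78-fold higher, but from a low level, with 156 against 30 UMIs or 1.80 against 0.376 CPM (log2 2.26, 1.69 to 2.87). In cells that failed the dividing gate (under 3 UMIs of 5 division genes) its log2 ratio was 1.32, from 15 against 8 UMIs. WNT2B differed by a log2 ratio of 0.05 (-0.11 to 0.20) and WNT3 by -0.06 (-0.45 to 0.34), so both intervals held 0. WNT5B was lower by little, with -0.25 (-0.31 to -0.19).

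Of the 6 members at 1 CPM or more in either library, 2 were at least 2-fold lower, where 1.28% of the 13477 genes at that level were. In the other direction 1 of the 6 was at least 2-fold higher, against 1.39% of the genes, and in either direction it was 3 of 6 against 2.68%. The median log2 ratio was -0.15 over the 6 members and 0.05 over all genes. By rank, WNT7B was the 12th lowest and WNT5A the 13th highest log2 ratio of the 13477, and WLS the 54th lowest. WNT5A entered the count and the ranks through D5_XAV939 alone, where it was higher (1.80 CPM, against 0.376 without XAV939).

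At D10 the log2 ratios of WLS and WNT2B were farther from 0 than at D5, a difference between days that was not tested. WLS was at 21.5 CPM with XAV939 and 267 without, 12.4-fold lower (1248 against 21021 UMIs, log2 -3.63, -3.72 to -3.55). WNT2B was 7.34-fold lower (869 against 8651 UMIs, log2 -2.88, -2.98 to -2.77). WNT7B was 4.14-fold lower (903 against 5068 UMIs, log2 -2.05). WNT8B had 3 UMIs with XAV939 and 113 without, a log2 ratio of -4.80 with a wide interval from -7.09 to -3.21. WNT7A, under 1 CPM in both, had 0 against 28 UMIs and was at least 6.88-fold lower when its 0 is taken as 3 counts in that library.

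The remaining ligands at D10 did not follow these. WNT5B was at 101 CPM with XAV939 and 79.6 without (log2 0.34, 0.29 to 0.39). WNT3 was at 2.50 and 1.76 CPM (log2 0.50). WNT5A, higher with XAV939 at D5, had 44 against 48 UMIs at D10 (log2 0.31, -0.31 to 0.93). Its log2 ratio was 1.47 in cells that failed the dividing gate, from 4 against 2 UMIs. WNT4 had 6 against 1 UMIs, a ratio of 8.14 whose log2 interval ran from -0.02 to 8.55, and WNT3A had 1 against 2.

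In counts, 4 of the 6 members at 1 CPM or more were at least 2-fold lower at D10, where 3.58% of 14088 genes were, and 0 of 6 were at least 2-fold higher, where 2.53% were, with 6.10% of the genes past 2-fold in either direction. The median log2 ratio was -2.46 over the members and 0.01 over all genes. WNT8B was the 4th lowest log2 ratio of the 14088, WLS the 14th, WNT2B the 32nd and WNT7B the 84th. WNT8B entered the count and the ranks through D10_dSMADi alone, where it was higher (1.43 CPM, against 0.0517 with XAV939). D5 and D10 have controls of their own, so these are 2 pairs of libraries, though from 1 droplet run. The study had itself reported WLS, WNT2B and SFRP2 as higher without XAV939. Members were chosen with earlier results of these data known, so the counts and ranks of both days describe the members and are not independent of that choice.

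**Figure D3:**
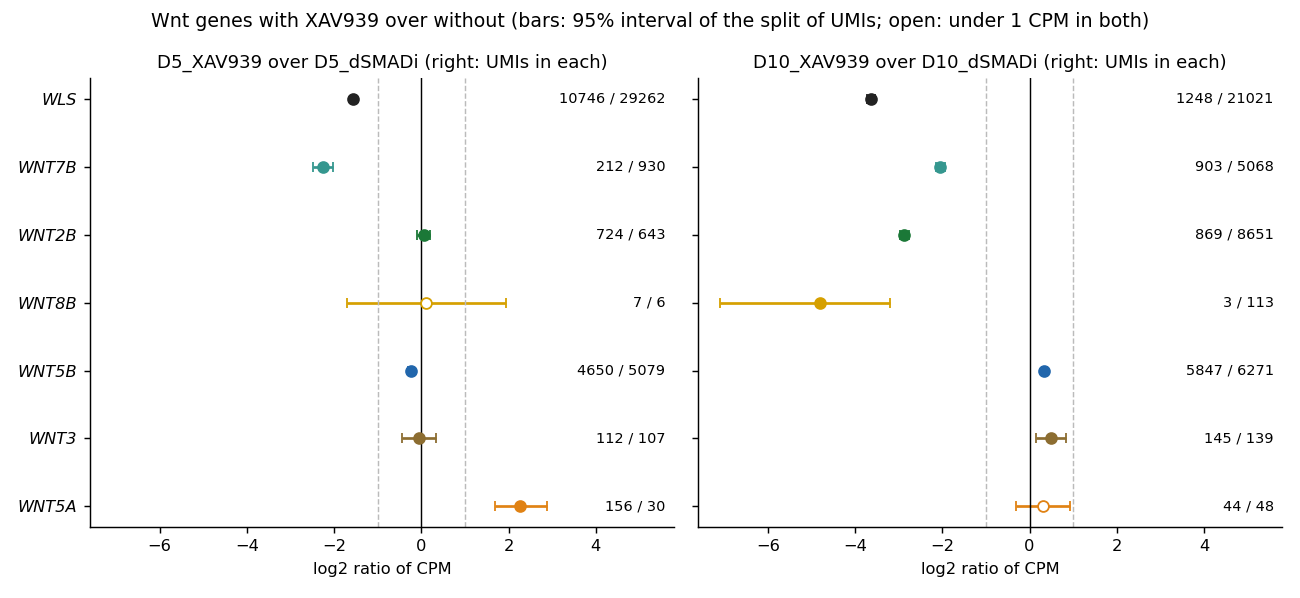
Log2 ratio of CPM with XAV939 over without, at D5 (left panel) and D10 (right panel), for 7 of the genes with 95% intervals of the split of UMIs, and with the UMIs of both libraries beside each point (dashed lines mark 2-fold, open points are under 1 CPM in both libraries). WLS and WNT7B lie left of the 2-fold line on both days, WNT2B and WNT8B at D10 alone, and WNT5A lies right of it at D5, with 44 against 48 UMIs at D10.

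The lower WLS also showed in the share of cells with a UMI. Thinned to 10000 UMIs per cell, 94.7% of the D5_dSMADi cells had a WLS UMI and 59.8% of the D5_XAV939 cells (99.5% and 81.0% unthinned), and 87.3% of the D10_dSMADi cells against 17.99% of the D10_XAV939 cells (98.2% and 37.7% unthinned). The thinned share at D0 was 6.54%, which serves as the low reference since no cell type in these libraries is known to lack WLS. For WNT2B the thinned shares at D10 were 59.6% without and 12.4% with XAV939, and for WNT7B 40.5% and 13.5%. WNT5B had 54.8% and 61.5%. Median depth at D10 was 31112.5 UMIs per cell without and 24290.5 with XAV939.

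The cells of D10_dSMADi were also parted by a UMI of EMX2, a dorsal forebrain factor, or of another member. WLS, WNT2B, WNT5B and WNT7B varied by log2 ratios between -0.12 and 0.53, WNT8B by -0.47 to 0.68 and WNT3 by -0.14 to 0.97. WNT5A was higher in cells with a WNT7B UMI by 1.10 (-0.07 to 2.50), and WNT7A in cells with an EMX2 UMI by 1.11 (-0.32 to 2.86), with 48 and 28 UMIs in all and intervals that held 0.

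The D10 libraries also differed in markers of other cells. Of the 4 neuronal markers (STMN2, DCX, TUBB3, ELAVL4), 3 were at least 2-fold higher with XAV939, with 385 against 212 CPM over the list. Among neural crest markers TFAP2A was at 10.2 against 0.800 CPM, whereas the crest-defining SOX10, FOXD3 and SNAI2 were each at 1.24 CPM or less in both libraries. Of the mesenchyme markers 1 reached 1 CPM, COL1A1 with 3.46 against 13.8 CPM, and PDGFRA had 0.861 against 0.508. In cells with no STMN2 UMI, 4 of 6 members were at least 2-fold lower, where 3.81% of the genes were, and WLS had a log2 ratio of -3.63. The part of TFAP2A and COL1A1 in these differences was not tested.

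The other genes of the pathway were read from lists. The 10 further Wnt ligands all stayed under 1 CPM at D5 and D10. WNT1, a ligand of the dorsal midline and midbrain, had 41 UMIs in D5_dSMADi and 1 in D5_XAV939. Of 9 Frizzled receptors at 1 CPM or more, 3 (FZD1, FZD5 and FZD8) were at least 2-fold higher with XAV939 on both days. FZD5 was at 149 against 59.5 CPM at D5 and at 245 against 40.8 at D10, and FZD9 was lower at D10. None of 6 co-receptors and none of 6 tankyrase and destruction complex genes passed 2-fold on either day. Of the feedback targets of beta-catenin, 0 of 6 passed 2-fold at D5 and 1 of 7 at D10, where LGR5 was higher at 5.92 against 2.62 CPM. Their median log2 ratios were 0.03 and 0.01. Of 4 secreted Wnt antagonists at 1 CPM or more, 0 passed 2-fold at D5. At D10 1 of the 4 was lower, SFRP2 with 576 against 1176 CPM, and 0 were higher. Among the R-spondins, which raise the receiving cell's response to Wnt, RSPO2 was 15.4-fold lower with XAV939 at D5, where it had 23.0 CPM without, and RSPO3 was at 7.28 against 1.33 CPM at D10. Of the 6 dorsal midline genes at 1 CPM or more at D5, 3 were at least 2-fold lower (LMX1A, MSX2 and RSPO2), and at D10 0 of 3 were lower and 2 (MSX1 and RSPO3) were higher.

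TCF/LEF factors bind a core written CTTTGAT. RefSeq promoters on GRCh38.p14, from 250 bases before to 50 after a transcription start, were listed for 9 of the members, with 13 starts in all, and for WNT7B none was listed. The core, searched on both strands, was in 0 of these 13 and in 2.62% of all 35116 promoters of that length. Its shorter form CTTTG, which is part of the core, was in 3 of 13 and in 47.5% of all, a common run of letters. The matches are shown because WNT8B was among the genes lower at D10 and WNT3 and WNT5B were not. They are stretches of 30 bases on the gene's strand with the short core in capitals.
WNT8B, chr10:100462823-100462852, plus strand: cccgcttctttCTTTGtcctctttctcctg
WNT8B, chr10:100462979-100463008, plus strand: gataatctcttCTTTGgacgtttggcagct
WNT3, chr17:46818895-46818924, minus strand: cggggcgcgggCTTTGcccaagtttgctgg
WNT3, chr17:46818655-46818684, minus strand: tctcaagtggaCTTTGttccaactattggg
WNT5B, chr12:1629251-1629280, plus strand: ttagcaggcacccaggcctgtCTTTGgctc
The WLS and WNT2B promoters held neither form. A match in these windows is a description and not a binding site, and sites outside them were not searched.

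At D22 the cells were parted by UMIs of IRX1, IRX2, IRX3 or IRX5, Iroquois transcription factors that pattern the neural tube behind the most anterior forebrain. Of 9523 cells, 1420 had at least 1 such UMI, with a median of 13259 UMIs per cell against 12030 in the others. WLS was at 75.2 CPM in these IRX+ cells and at 3.59 in the others, 21.0-fold higher (1675 against 388 UMIs, log2 4.39, 4.23 to 4.55). WNT7A, a ligand of the developing central nervous system, was 38.7-fold higher (239 against 30 UMIs, 10.7 against 0.277 CPM, log2 5.27, 4.72 to 5.87). The log2 ratio of WNT7A was 3.77 with the gate set after each cell was thinned to 1500 UMIs and 6.21 with at least 2 IRX UMIs, and that of WLS was 3.41 and 5.27. WNT5A was 5.31-fold higher (8.40 against 1.58 CPM, log2 2.41) and WNT3 3.13-fold higher (2.60 against 0.832 CPM, log2 1.65). Over the alternatives the log2 ratio of WNT5A ranged from 2.36 to 3.22 and that of WNT3 from 1.23 to 2.44. Both were highest with at least 2 IRX UMIs.

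The other ligands at 1 CPM or more were not past 2-fold. WNT7B was at 10.7 against 5.49 CPM (log2 0.96, 0.74 to 1.18). WNT5B, the leading ligand of the library, was lower in IRX+ cells, at 64.9 against 100.1 CPM (log2 -0.63). The log2 ratios of WNT2B (0.02) and WNT4 (-0.04) had intervals that held 0, and WNT8B, under 1 CPM, had 8 against 6 UMIs (log2 2.70, 0.98 to 4.501). In counts, 4 of the 8 members at 1 CPM or more were at least 2-fold higher, where 3.82% of 13533 genes were, and 0 of 8 were at least 2-fold lower, where 0.562% were, with 4.38% past 2-fold in either direction. With at least 2 IRX UMIs required, WNT4 (log2 -1.32) and WNT5B (-1.61) were past 2-fold lower, WNT7B (1.56) was past 2-fold higher, and the counts became 5 of 8 higher and 2 of 8 lower, where 7.26% and 6.59% of all genes were. The gate set after thinning gave -1.22 for WNT4 and -1.44 for WNT5B. WNT7A was the 20th highest and WLS the 32nd highest log2 ratio of the 13533. WNT7A (10.7 against 0.277 CPM) and WNT3 (2.60 against 0.832) reached 1 CPM in the IRX+ cells alone, and entered the count through them.

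The levels were also read by the number of IRX UMIs in a cell. WLS was at 3.59, 17.9, 67.7, 151 and 165 CPM in cells with 0, 1, 2, 3 to 5 and 6 or more IRX UMIs (8103, 768, 154, 232 and 266 cells). WNT7A was at 0.277, 1.88, 10.1, 25.8 and 21.8 CPM in the same order. WNT5B went the other way, from 100.1 to 94.05, 63.9, 24.95 and 22.8 CPM, and WNT4 had 9.43, 14.05, 8.83, 3.19 and 1.68. WLS and WNT7A thus stood highest where more IRX UMIs were found, and for both the 2 top steps had overlapping intervals. Median depth was 12030, 12808.5, 13323.5, 12630 and 16618 UMIs per cell over the 5 steps. WNT2B stayed between 7.54 and 10.9 CPM with no order.

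**Figure D4:**
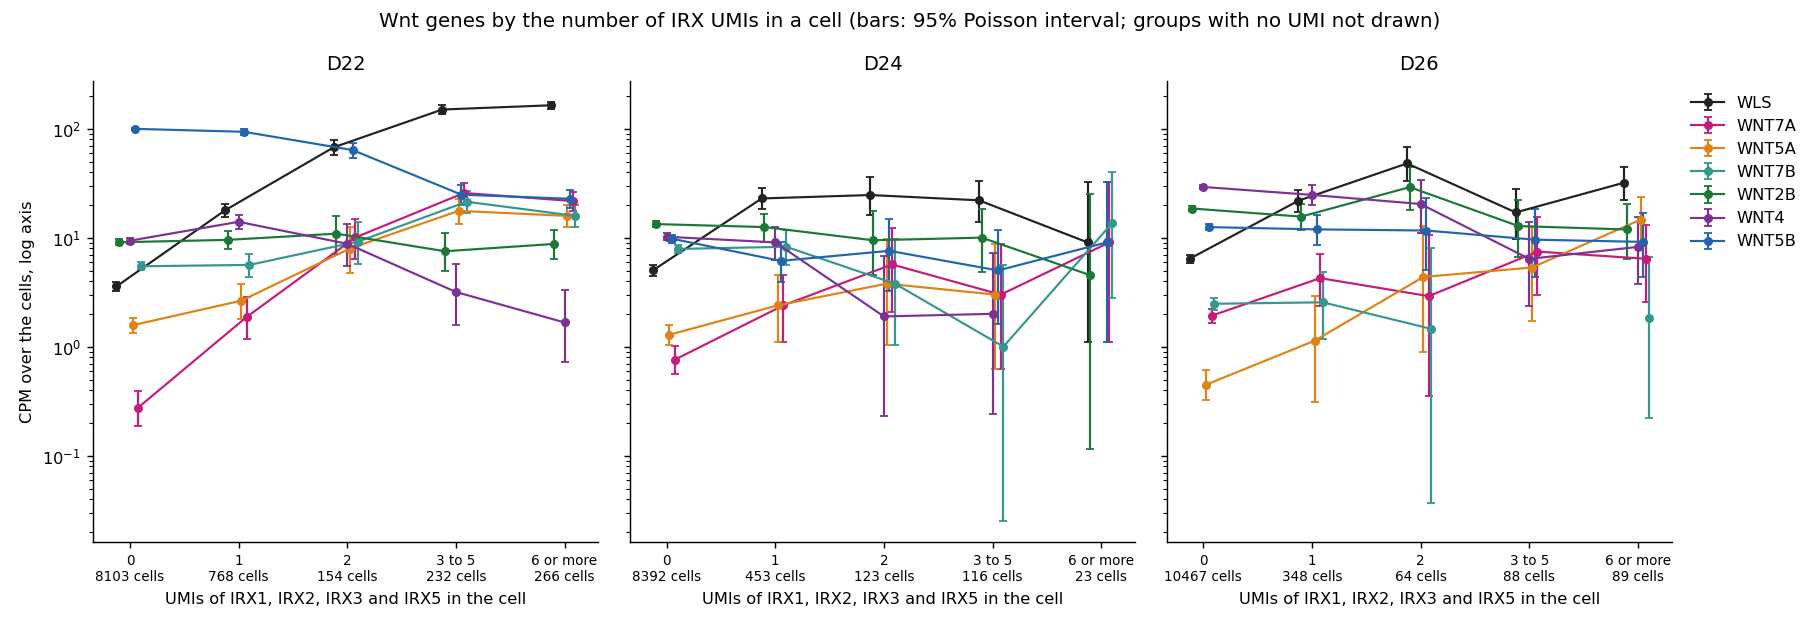
Level of 7 of the genes, in CPM on a log axis with 95% Poisson intervals, in cells grouped by their summed UMIs of IRX1, IRX2, IRX3 and IRX5, for D22, D24 and D26 (cells per group under the axis; a group with 0 UMIs is not drawn). At D22 WLS climbs from 3.59 to 165 CPM and WNT5B goes from 100.1 to 22.8, while D24 and D26 show wide intervals and a step between 0 and 1 IRX UMI for WLS.

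The WLS level also differed with the Iroquois gene detected. Cells with an IRX5 UMI had 167 CPM of WLS, those with IRX3 158, those with IRX1 116 and those with IRX2 74.3. Among cells with 1 of the 4 genes alone, the 51 with IRX5 had 126 CPM (103 to 152) and the 31 with IRX3 had 50.8 (31.8 to 76.9). The 769 with IRX2 alone had 18.6 CPM (16.3 to 21.3) and the 73 with IRX1 alone had 16.5 (9.59 to 26.4), with intervals that overlapped. These groups overlap and share cells, apart from those with 1 gene alone.

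Seen from the members, 454 of the 586 D22 cells with a WLS UMI had an IRX UMI (77.5%, 73.9 to 80.8), as did 171 of the 194 with a WNT7A UMI (88.1%, 82.7 to 92.3), against 14.9% of all cells. For WNT5A the share was 47.9%, for WNT7B 27.7%, for WNT2B 17.3%, for WNT4 14.8% and for WNT5B 11.2%. WLS was concentrated, with 49.1% of its UMIs in the top 1% of cells and up to 30 UMIs in a cell. In D10_dSMADi the top 1% of cells held 3.55%. As a reference for free RNA, the 885 D22 cells that passed only the glutamatergic gate (TBR1, PPP1R17 or SLC17A6) had 3 WLS UMIs, or 0.278 CPM.

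The same cells carried several members. D22 cells with a WLS UMI had 20.2 CPM of WNT7A against 0.573 in cells without, 17.3 against 1.54 CPM of WNT5A, 19.0 against 5.34 CPM of WNT7B and 4.03 against 0.896 CPM of WNT3. They had less WNT5B (29.1 against 99.4 CPM) and less WNT4 (4.64 against 9.77 CPM). Of the 14 WNT8B UMIs at D22, 13 were in them. SFRP2, a secreted Wnt antagonist, had a UMI in 2672 cells, which held 1973 of the 2063 WLS UMIs and 864 of the 1224 WNT4 UMIs. Within the cells with an EN2 UMI, a midbrain and hindbrain factor, WLS was at 104 CPM and WNT4 at 1.16, the first above and the second below the 13.4 and 9.61 CPM of the other cells.

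Other regional markers moved with the IRX+ cells. Of the 4 midbrain and hindbrain genes at 1 CPM or more at D22, 3 (EN1, EN2 and GBX2) were at least 2-fold higher, where 3.82% of all genes were. A gene could enter through the IRX+ cells alone, as the limit needs 1 CPM in either group. NR2F1 (188 against 6.61 CPM) and CRABP1 were also at least 2-fold higher. The study named these 2 with the IRX genes as markers of its IRX+ cluster, from cells of D22, D24 and D26. Their higher level here therefore adds no separate information. Of 4 mesenchyme genes 1 was higher, COL3A1 with 345 against 15 UMIs. The 115 cells with a COL3A1 UMI held 438 of the 2063 WLS UMIs. The part of these markers in the WLS level was not tested.

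D24 and D26 had fewer IRX+ cells, 715 of 9107 and 589 of 11056. Median depth was 7180 and 8485 UMIs per cell, against 12179 at D22, and a cell with fewer UMIs passes the gate less easily. The 4 IRX genes summed to 33.6 CPM at D22, 18.3 at D24 and 16.3 at D26. WLS was at 22.7 against 5.05 CPM at D24 (4.48-fold, log2 2.17, 1.87 to 2.46) and at 25.9 against 6.45 at D26 (4.02-fold, log2 2.01, 1.75 to 2.26). WNT7A was 4.36-fold higher at D24 and 2.58-fold at D26, from 20 and 31 UMIs in the IRX+ cells. WNT5A was 2.06-fold higher at D24 (16 against 83 UMIs, log2 1.04, 0.17 to 1.83, but 0.55 as a mean over cells) and 10.0-fold at D26 (28 against 42 UMIs, log2 3.32). The D26 log2 ratio was 4.30 with at least 2 IRX UMIs (24 against 42 UMIs) and 4.42 with the gate set after thinning (20 against 50 UMIs). WNT4 was lower in IRX+ cells on both days, with log2 ratios of -0.69 at D24 and -0.65 at D26. With at least 2 IRX UMIs they were -2.54 and -1.45, from few UMIs in those cells.

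Other markers moved with the IRX+ cells on these days too. All 5 division genes were at least 2-fold higher in them, with 320 against 31.6 CPM in sum at D24 and 96.4 against 8.77 at D26, as were 5 of 5 and 3 of 3 midbrain and hindbrain genes at 1 CPM or more and 2 of 2 mesenchyme genes (COL3A1 and PDGFRA). Of the dorsal midline genes at 1 CPM or more, 3 of 6 were at least 2-fold higher at D24 (LMX1B, BMP7 and RSPO2) and 1, the choroid plexus gene TTR, was lower, with a median log2 ratio of 1.51 while the sum, mostly RSPO3, was lower at 292 against 489 CPM. At D26, 5 of 7 were higher and 0 lower, with a median log2 ratio of 2.85 and a sum of 58.7 against 16.1 CPM. These 5 were LMX1B, BMP7 and the R-spondins RSPO1, RSPO2 and RSPO3. TFAP2A, a neural crest and surface ectoderm factor, was at 15.8 against 1.04 CPM at D24 and at 19.0 against 0.804 at D26. In cells that failed the dividing gate, WLS was at 19.8 against 4.66 CPM at D24 and 22.4 against 5.96 at D26, and its log2 ratios were 2.09 and 1.91. The 22 D24 cells that passed only the dividing gate had 117 CPM of WLS, from 27 UMIs. The part of the other markers was not tested.

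At D24, 3 of 8 members were at least 2-fold higher, where 6.34% of 13425 genes were, and 0 of 8 lower, where 2.07% were, or 8.41% in either direction. The count higher at D24 was 2 as a mean over cells. At D26 the same numbers were 3 of 8 against 5.37% of 13591 genes, and 0 of 8 against 1.54%, or 6.91% in either direction. WNT7A at D24 (3.33 against 0.764 CPM) and WNT5A at D26 (4.505 against 0.450 CPM) reached 1 CPM in the IRX+ cells alone. With at least 2 IRX UMIs, 3 of 8 were higher and 2 of 8 lower (WNT4 and WNT7B) on each day, where 10.2% of all genes were higher and 11.3% lower at D24, and 8.89% and 6.83% at D26. The 2 lower members rest on few UMIs. In cells with 2, 3 to 5 and 6 or more IRX UMIs, WNT7B had 4, 1 and 3 UMIs at D24 and 1, 0 and 2 at D26. WNT4 had 2, 2 and 0 at D24 and 14, 6 and 9 at D26. The share of WLS-carrying cells that also had an IRX UMI was 26.5% at D24 and 14.7% at D26, against 7.85% and 5.33% of all cells. The interval of the WLS ratio at D22 lay above those at D24 and D26, which overlapped. The difference between days was not tested, and the gate worked at a different depth on each day.

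Parted by neuronal markers instead, the members took different places. Gates were at least 2 UMIs of DLX1, DLX2, DLX5 and DLX6 (factors of GABAergic neurons), at least 2 of the glutamatergic genes above, at least 3 of 5 division genes, or an IRX UMI, and a cell counted for a gate if it passed no other. At D26 WNT7A was at 10.4 CPM (8.60 to 12.5) in the 1295 DLX cells, which held 55.5% of its UMIs, and at 0.401 (0.269 to 0.576) in the 8112 glutamatergic cells. At D24 it was at 8.30 CPM in 389 DLX cells and at 0.156 in 6578 glutamatergic cells. At D22, where most WNT7A UMIs were in IRX cells, the DLX cells had 1.08 CPM from 7 UMIs.

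WNT7B lay the other way. At D24 it had 415 UMIs (8.10 CPM, 7.34 to 8.92) in glutamatergic cells and 0 in DLX cells, and at D26 2.82 against 0.444 CPM. WNT4 at D26 was at 32.1 CPM (30.8 to 33.4) in glutamatergic and 16.6 (14.3 to 19.2) in DLX cells. At D22 WNT4 was highest in the 1993 dividing cells, at 17.5 CPM (16.1 to 19.0), against 4.77 to 6.15 in the DLX, glutamatergic, IRX and ungated cells. WNT5B at D22 was at 119 CPM in the 4345 ungated cells and 49.7 in glutamatergic cells. WNT2B stayed between 7.27 and 14.2 CPM over the D22 gates. These gates are ranges of counts and not cell types, and at D22 364 of the 692 IRX cells, 257 of the 1993 dividing, 130 of the 885 glutamatergic and 91 of the 522 DLX cells were at the limit of their gate.

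**Figure D5:**
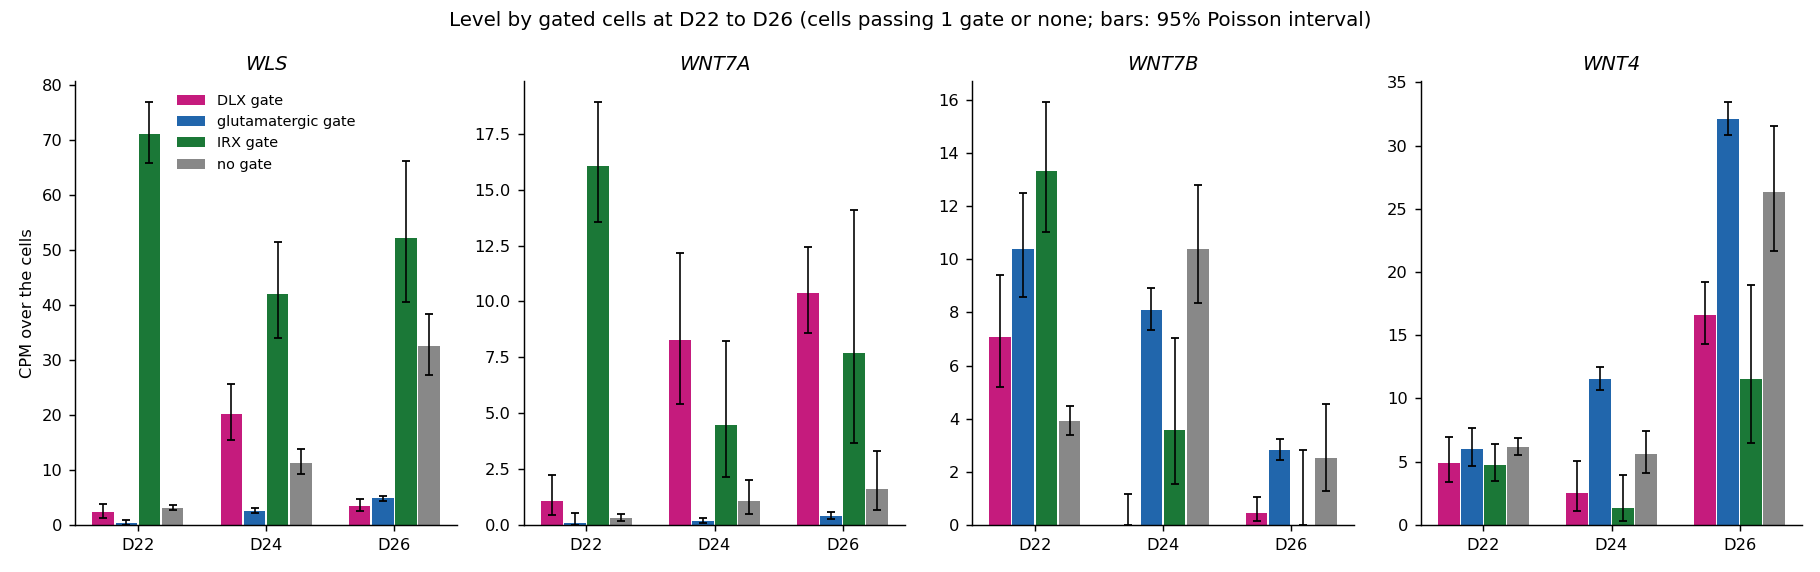
Level of WLS, WNT7A, WNT7B and WNT4 in CPM, with 95% Poisson intervals, over cells that passed only the DLX, the glutamatergic or the IRX gate, or no gate, at D22, D24 and D26. At D26 WNT7A is at 10.4 CPM in DLX and 0.401 in glutamatergic cells, and WNT4 at 16.6 and 32.1. Among the classes drawn, WLS is highest in the IRX gate on all 3 days. Cells that passed only the dividing gate, not drawn, had 5.62 CPM of WLS at D22, 117 at D24 (27 UMIs) and 234 at D26 (3 UMIs). The IRX gate had 71.2, 42.0 and 52.2.

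For the 5 members that reached 10 CPM in a library, the genes with the most similar pattern were sought among 10711 genes by Pearson's r of log2(CPM + 1) over the 8 libraries, which differ in run and depth. WLS was most like OTX1, a forebrain and midbrain transcription factor (r = 0.977), KDM5B and H1F0. WNT4 was most like DLX5 (r = 0.995), GPC2 and SLC12A5, and WNT5B most like ZBTB16 (r = 0.979), SOX21-AS1 and NIN. WNT7B had CDKN1A (r = 0.945), CCDC113 and NLGN1, and WNT2B had RBM42 (r = 0.960), AC046134.2 and STK16. Pearson's r does not weigh the size of a change, so a gene with a narrow range can rank high. RBM42 was at 43.0 CPM at D0 and 56.2 in D10_dSMADi, where WNT2B was at 1.74 and 110. With 8 points and many genes compared, these values are a description.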

How the data were processed

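The members and gene lists were chosen with earlier results of these data known. Per the file headers, the authors made the deposited counts with Cell Ranger 3.1.0 (D22, D24, D26) and 6.1.2 (tagged libraries). These are whole UMI counts per gene and barcode on GRCh38, without normalization. Tagged libraries were matched to conditions by the tag in their files, which held 95.1% to 95.6% of tag UMIs. The library of the tags alone was not analysed here.

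Cells were kept by the study's stated limits on UMIs, genes, mitochondrial share and complexity. For D0 the stated complexity above 0.85 left 1 cell, so it was dropped and 1009 were kept. The sets differ from the study's at D5 and D10, whose cell numbers equal all deposited barcodes (2480, 2919, 2778 and 2638). For D0 the study states a cell number close to, but not the same as, the 1009 kept here. Doublets were not called; an alternative left out the 5% of cells with the most UMIs. Counts were summed per group and scaled to CPM. Levels have Poisson, shares Clopper-Pearson and ratios exact binomial intervals, at 95%. A ratio was called past 2-fold at 1 CPM or more in either group, and was not formed where both groups had 3 UMIs or fewer. The ratio was tested on simulated data. All members are named, list genes by counts with values where a sentence turns on them, and 3 similar genes per member. Python 3.11.15, numpy 2.4.6, scipy 1.17.1 and pandas 2.3.3 were used. Gene positions are from GENCODE v44. Alternatives varied the cells kept, the scaling, the CPM limit, the IRX gate and the depth. Some list genes are not reported here.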

Additional observations from a re-analysis of the deposited data

Results flagged for a closer look

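WNT5B was flagged because its log2 ratio of XAV939 over no XAV939 had opposite signs on the 2 days, -0.25 at D5 (4650 against 5079 UMIs) and 0.34 at D10 (5847 against 6271 UMIs). Each rests on 1 library per condition, both are under 2-fold, and the difference between the days was not tested.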

How the results depend on the processing

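Over 46 alternatives to the 5 counts of members past 2-fold, 38 were within 1.5 times the count given and 8 were not. All 8 concern IRX+ cells. These counts add members higher and members lower, so a turn of direction could not show in them. With at least 10 CPM required, the counts were 2 at D22, 1 at D24 and 1 at D26, since fewer members were compared (2.41%, 3.27% and 2.25% of all genes). With at least 2 IRX UMIs they were 7, 5 and 5, where 13.9%, 21.4% and 15.7% of all genes were past 2-fold, and of which 2 on each day were lower: WNT5B (log2 -1.61) and WNT4 (-1.32) at D22, WNT4 (-2.54) and WNT7B (-1.17) at D24, and WNT4 (-1.45) and WNT7B (-1.17) at D26. With the gate set after thinning each cell to 1500 UMIs they were 7 at D22 and 5 at D26 (5.79% of all genes higher and 6.19% lower at D22, 9.90% and 6.85% at D26). The cause was not tested. The lower values of WNT4 and WNT7B at D24 and D26 with at least 2 IRX UMIs rest on few UMIs, as given above. At D5 the count was 2 with at least 10 CPM required (1.19% of all genes past 2-fold) and 3 otherwise (2.60% to 11.3%). At D10 it was 3 with at least 10 CPM (2.62%), 6 with no CPM limit (5.43% of all genes higher and 10.6% lower) and 4 otherwise (5.79% to 11.5%). In cells that failed the dividing gate the log2 ratio of WNT5A was 1.32 at D5 and 1.47 at D10, and as a mean over cells it was 0.55 at D24, under 2-fold. The log2 ratio of WLS ranged from -1.75 to -1.56 at D5, from -3.73 to -3.55 at D10 and from 3.41 to 5.27 at D22, and that of WNT7A from 3.77 to 6.21 at D22.

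No paired analysis was possible because each condition is 1 library. WNT3A in every library, WNT7A before D22 and WNT8B outside D10_dSMADi were under 1 CPM and rest on few UMIs, and differences there were not detectable at this depth unless stated.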
